A study of Mus musculus with 2 samples.

Results

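The liver-type transcripts are 37 genes that a hepatocyte, the main cell of the liver, makes for export into blood plasma or for its own metabolism. They were looked for in the gastrocnemius (GAS), a calf muscle, where 2 two-colour Agilent arrays of the whole mouse genome each set *Gde5* skKO RNA against WT RNA. The genes were found through the gene name of each probe or an older alias of it, so that *Alb* was read from probes named Alb1 and *Hpx* from probes named Hpxn. Of the 37 genes, 35 had a probe, with 45 probes in all, among 27077 genes with a probe on the arrays. *Serpina1a* and *Pck1* were not analysed here. The genes were chosen by their *Gde5* skKO over WT ratios as well as by their liver expression, since the list was drawn up after the lowest ratios of these same arrays had been seen. The ratios below are therefore a description and carry no test.

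The mice were 15-week-old males on a normal diet. The study speaks of array comparisons after glucose injection and under fasting, and the labels do not say which state these arrays hold. *Gde5* skKO mice are HSA-Cre;*Gde5* flox/flox animals, in which Cre driven by the human skeletal actin promoter removes exon 11 of *Gde5* (*Gpcpd1*), a glycerophosphocholine phosphodiesterase. The Cre acts in muscle fibres, so fat, vessel, blood and immune cells in the muscle keep the gene. For this line the study describes *Gde5* flox/flox littermates without Cre as controls, while the sample labels call the controls wild-type, shortened to WT here. On array 1 the WT sample was labelled with Cy3 and the *Gde5* skKO sample with Cy5, and the dyes were exchanged on array 2. Whether RNA of several mice was pooled, and whether both arrays hold the same RNA, is not stated in the sources used here, so the arrays stand for 2 hybridizations and not for a spread between mice. Of the 4 probes for *Gde5*, listed under its older name Prei4, 3 had log2 ratios between -2.59 and -3.29, and the brightest had ratios of -0.05 and -0.47. Below, each gene is read by its brightest probe, and by that rule the deleted gene itself was not called. A gene not called may thus differ at another probe.

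Hepatocytes release albumin, carriers of iron, vitamins and haem, lipoprotein proteins, clotting factors and protease inhibitors into plasma, and they hold the enzymes of the urea cycle, amino acid breakdown, glucose release and drug oxidation. Their promoters are read by a small set of factors, among them HNF4, FOXA and C/EBP proteins. Several of the same genes are not restricted to liver. Adipocytes express *Rbp4* and *Hp*, macrophages express *Apoc1*, gut epithelium expresses *Fabp1*, and the nervous system expresses *Trf* and *Ttr*. Skeletal muscle fibres are not a known main source of the plasma proteins on the list.

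The promoters of 5 members are shown here to set beside their ratios: *Alb*, the defining hepatocyte product, then *Ahsg*, *Fabp1* and *Fgg*, which had some of the lowest ratios, and *Apoh*, the member with the highest. Each is the 250 bases before a RefSeq start site, read 5′ to 3′ on the gene's own strand. In GRCm38.p6 they lie at chr5:90460620-90460869 (*Alb*, plus strand), chr16:22891765-22892014 (*Ahsg*, plus strand), chr6:71199629-71199878 (*Fabp1*, plus strand), chr3:83007474-83007723 (*Fgg*, plus strand) and chr11:108395047-108395296 (*Apoh*, plus strand). Capitals mark matches to any of 4 short motifs, searched on both strands: TATAAA for the TATA box, CAAAGT for HNF4, TTGCNNAA for C/EBP and TGTTTAC for FOXA.
Alb: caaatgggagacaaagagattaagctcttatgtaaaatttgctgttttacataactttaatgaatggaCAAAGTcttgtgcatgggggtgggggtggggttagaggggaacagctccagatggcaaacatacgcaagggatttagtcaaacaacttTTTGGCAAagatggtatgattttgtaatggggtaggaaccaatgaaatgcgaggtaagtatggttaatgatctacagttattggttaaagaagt
Ahsg: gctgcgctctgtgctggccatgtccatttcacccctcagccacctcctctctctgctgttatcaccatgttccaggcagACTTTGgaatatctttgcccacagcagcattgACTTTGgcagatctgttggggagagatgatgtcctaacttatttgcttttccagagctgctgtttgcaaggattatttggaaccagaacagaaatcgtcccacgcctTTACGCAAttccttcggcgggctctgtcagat
Fabp1: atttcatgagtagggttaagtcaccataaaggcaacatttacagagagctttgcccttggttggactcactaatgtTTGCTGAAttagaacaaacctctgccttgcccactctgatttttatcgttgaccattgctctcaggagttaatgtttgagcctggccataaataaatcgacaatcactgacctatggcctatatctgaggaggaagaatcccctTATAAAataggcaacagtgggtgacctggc
Fgg: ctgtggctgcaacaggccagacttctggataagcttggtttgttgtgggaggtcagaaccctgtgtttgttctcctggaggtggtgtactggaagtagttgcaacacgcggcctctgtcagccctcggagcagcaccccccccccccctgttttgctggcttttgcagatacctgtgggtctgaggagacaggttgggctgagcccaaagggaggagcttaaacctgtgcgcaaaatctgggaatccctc
Apoh: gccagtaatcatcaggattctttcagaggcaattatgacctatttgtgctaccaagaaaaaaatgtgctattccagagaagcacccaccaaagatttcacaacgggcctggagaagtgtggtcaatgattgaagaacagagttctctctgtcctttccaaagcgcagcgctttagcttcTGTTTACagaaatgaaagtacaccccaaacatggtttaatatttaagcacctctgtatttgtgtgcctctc

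*Alb* held an HNF4 and a C/EBP match, whose first bases lay 182 and 94 bases before the start site. *Fabp1* held a C/EBP match and a TATA box, *Ahsg* held a pair of HNF4 matches and a C/EBP match, and *Apoh* held a FOXA match. The *Fgg* window held none of the 4. Matches within these 5 windows did not overlap. Promoters were found for 26 members, 28 windows in all. A C/EBP match was in 10 of the 28 windows (35.7%) against 9.56% of 32851 promoters of the same length. An HNF4 match was in 10 windows (35.7%, against 12.6% of all promoters). A TATAAA match anywhere in the window was in 8 (28.6%, against 12.4%), and a FOXA match in 4 (14.3%, against 3.17%). The TATAAA matches began between 19 and 234 bases before the start site, so not each need be a working TATA box. Genes with higher and with lower ratios both carried matches, and a match of letters is a description and not a site of binding.

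The first question was which of these transcripts could be seen in muscle RNA at all. The brightest probe stood for each gene, which counted as measured when, on each array, that probe was well above background in 1 channel or both. Of the 35 members with a probe, 17 were measured, and these were well above background in the channels of both genotypes on both arrays. The share of all genes with a probe that was measured was 49.1%. The measured members were *Alb*, *Trf*, *Rbp4*, *Hp*, *Hpx*, *Mup1* and *Mup3* among the carriers, *Apoc1* and *Apoh* among the apolipoproteins, *Fgb*, *Fgg* and *Serpinc1* of the clotting system, *Ahsg* and *Itih4* of the inhibitors and acute phase proteins, *Fabp1* and *Tat* of the metabolic proteins, and *Cyp2e1* of the cytochromes P450.

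Another 16 members had a probe that was not well above background in any channel of either array. They included the apolipoproteins *Apoa1*, *Apoa2*, *Apob* and *Apoc3*. They also included *Fga* and *Plg* of clotting and its reversal, the inhibitors *Ambp*, *Serpina1b* and *Serpina3k*, the urea cycle enzymes *Cps1* and *Arg1*, *G6pc* of glucose release, *Hpd* of tyrosine breakdown, *Mat1a* of methionine use, and the P450 enzymes *Cyp2c29* and *Cyp3a11*. *Ttr*, the thyroxine carrier, was above background only in the WT channel of array 2. *Gc*, the vitamin D carrier, was above background only in the *Gde5* skKO channel of array 1. No member was above background in 1 genotype alone on both arrays, so presence did not separate the genotypes. The map of detection shows this as a block of 17 genes with all 4 channels filled and a block of 18 that are empty but for a single cell in *Gc* and in *Ttr*.

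**Figure D1:**
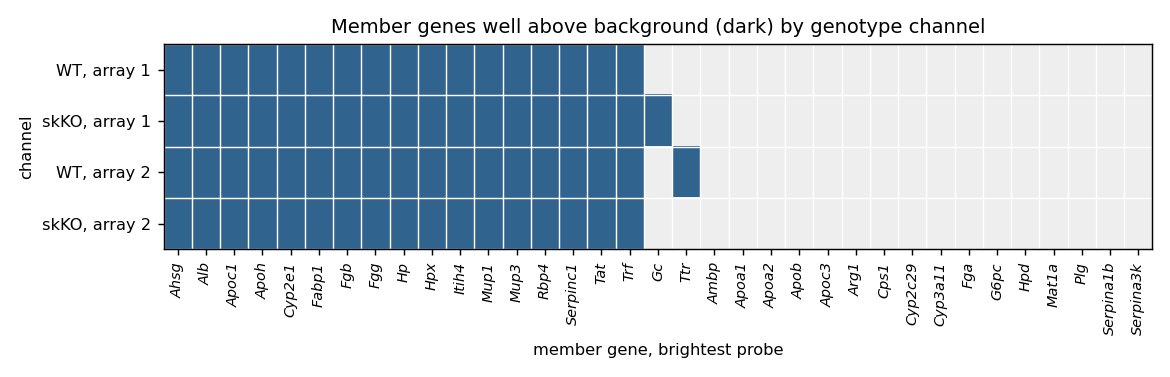
Detection of the 35 members with a probe. Columns are member genes by their brightest probe, rows are the WT and *Gde5* skKO channels of array 1 and array 2, and dark cells mark signals well above background. The 17 measured members are filled in all 4 channels, and *Gc* and *Ttr* are filled in 1 channel each.

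For *Apoa1*, the main protein of high-density lipoprotein, the processed signals on array 1 were 17.0 in WT and 20.6 in *Gde5* skKO, and on array 2 they were 21.6 and 13.4. For *Apoa2*, its partner in the same particle, they were 22.9 and 8.17 on array 1 and 16.7 and 15.5 on array 2. *Ttr* gave 10.9 in WT and 13.2 in *Gde5* skKO on array 1, and 103 and 14.7 on array 2. None of these ratios kept its size across the arrays: *Apoa1* had log2 ratios of 0.28 and -0.46, *Apoa2* of -1.49 and 0.00, and *Ttr* of 0.00 and -2.82. Across the unmeasured members the error that the image software gives a log2 ratio ran from 0.59 to 2.06, so differences of a few fold were not detectable for them.

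The second question was how the measured members differed between the genotypes. A gene was called when the p-value of the software's error model was under 0.05 on both arrays and both turned ratios had the same direction. This p-value covers the spots of a hybridization and not the spread between mice. Of the 17 measured members, 8 were called lower in *Gde5* skKO, beside 1.72% of all 13289 measured genes. One member, *Apoh*, was called higher, beside 1.6% of all measured genes. On direction alone, 13 members were lower on both arrays, beside 25.1% of all genes. The median of the members' log2 ratios was -0.89 (array 1) and -0.64 (array 2), where all measured genes had medians of 0.01 and 0.02. Because the list followed from the lowest ratios of these arrays, nothing is read from these shares. The median over the mean of both arrays was -0.63. With background correction by normexp and loess normalization in limma it was -0.22. That setting adds an offset of 50 to both channels, and the 8 called members kept their direction under it.

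**Figure D2:**
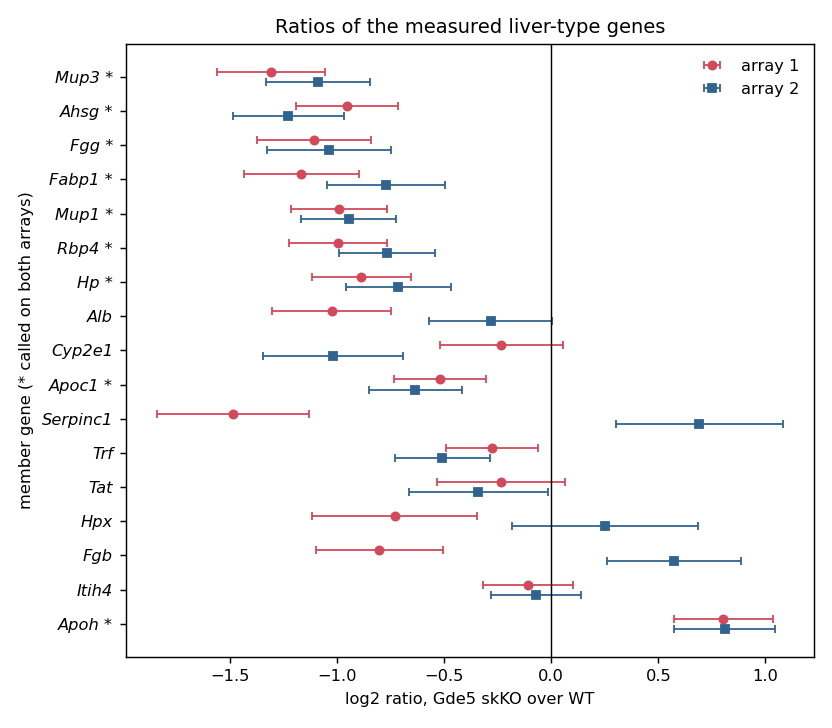
Log2 ratio of *Gde5* skKO over WT for the 17 measured members. Points are array 1 (circles) and array 2 (squares), bars are the error of the ratio from the image software within that hybridization, and stars mark called members. *Mup3* is lowest at -1.31 and -1.09, *Apoh* is highest at 0.80 and 0.81, and *Serpinc1*, *Hpx* and *Fgb* have points on both sides of 0.

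Among the carriers, 7 of 9 were measured and 4 were called lower, beside 1.72% of all measured genes. *Mup1* encodes a major urinary protein, a pheromone carrier that mouse liver secretes into blood for passage to urine. Its signals were 2031 in WT and 1021 in *Gde5* skKO on array 1, and 2008 and 1042 on array 2. Both WT channels were about equally high, both *Gde5* skKO channels about equally low, and the ranges did not overlap. The log2 ratios were -0.99 and -0.95, a mean of 1.96-fold higher in WT.

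*Mup3*, a relative of *Mup1* on chromosome 4, had signals of 417 in WT and 168 in *Gde5* skKO on array 1, and 470 and 221 on array 2. Its log2 ratios of -1.31 and -1.09 gave the lowest mean of the measured members, 2.30-fold higher in WT. With normexp and loess in limma the mean was -0.53, against -0.80 for *Mup1* and -0.55 for *Rbp4*. Both the size and the rank of the value thus depended on the processing. The *Mup* genes are a cluster of near-identical copies, so which copies these probes read is uncertain. Other probes of the family did not all repeat the value. A further *Mup1* probe had ratios of -0.64 and -1.08, with *Gde5* skKO not well above background on array 2, and the third *Mup1* probe and the other *Mup3* probe were not above background in any channel.

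*Rbp4*, the plasma carrier of retinol, was at 461 in WT and 231 in *Gde5* skKO on array 1, and at 420 and 247 on array 2. *Hp*, which binds free haemoglobin, was at 351 and 190 on array 1, and at 374 and 228 on array 2. In both genes the WT channels were high on each array whichever dye they carried, and the genotypes did not overlap. The log2 ratios were -0.997 and -0.77 for *Rbp4* and -0.89 and -0.71 for *Hp*.

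*Alb*, the most abundant plasma protein and the marker by which hepatocytes are usually known, was weaker and less even. Its signals were 154 in WT and 75.7 in *Gde5* skKO on array 1, and 112 and 92.3 on array 2. WT was the higher channel each time, but the gap on array 2 was small, with log2 ratios of -1.03 ± 0.28 and -0.28 ± 0.29 (error of the ratio within each array), and *Alb* was not called. *Trf*, the iron carrier, had ratios of -0.28 and -0.51 and was not called. *Hpx*, which binds haem, had ratios of -0.73 and 0.25, on opposite sides of 0.

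**Figure D3:**
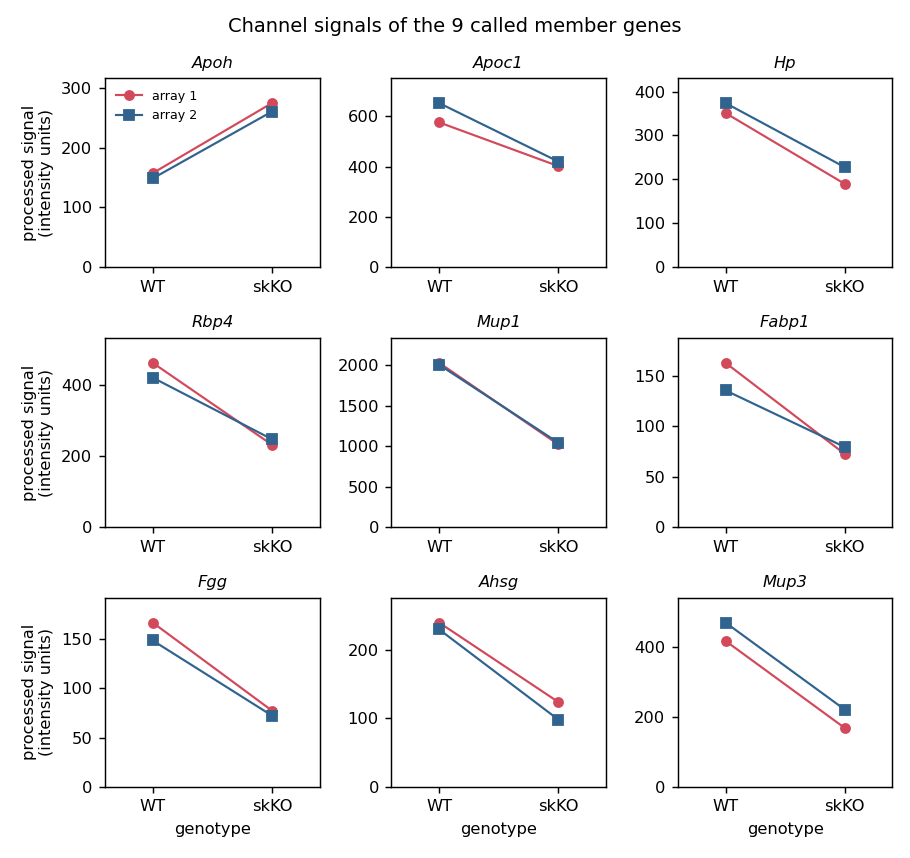
Processed signal (intensity units, axis from 0) in the WT and *Gde5* skKO channels for the 9 called members, with a line for each array. In 8 genes both lines fall from WT to *Gde5* skKO, as in *Mup1* from 2031 to 1021 and from 2008 to 1042, and in *Apoh* both rise.

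Among the apolipoproteins and related lipid-binding proteins, 2 of 6 were measured, and they lay in opposite directions. *Apoc1*, a small exchangeable apolipoprotein made by liver and by macrophages, had signals of 576 in WT and 402 in *Gde5* skKO on array 1, and of 653 and 420 on array 2. Its ratios of -0.52 and -0.64 were the smallest among the members called lower. *Apoh*, or beta-2-glycoprotein I, a plasma protein that binds anionic phospholipids, had signals of 157 in WT and 275 in *Gde5* skKO on array 1, and of 149 and 260 on array 2. Here the *Gde5* skKO channels were the high ones on both arrays, with ratios of 0.80 and 0.81, although *Apoh* is counted among the chiefly hepatocyte genes.

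The clotting genes included the chains of 1 protein, fibrinogen, encoded side by side on chromosome 3. *Fgg*, the gamma chain, was at 167 in WT and 77.3 in *Gde5* skKO on array 1, and at 148 and 72.2 on array 2. *Fgb*, the beta chain, was at 132 and 75.6 on array 1, but at 99.1 and 147 on array 2. *Fga*, the alpha chain, was not above background. *Fgg* was thus lower in *Gde5* skKO on both arrays, with ratios of -1.11 and -1.04, while *Fgb* changed side between the arrays, at -0.80 and 0.57. *Serpinc1*, or antithrombin, did the same, at -1.49 and 0.69, and a further *Serpinc1* probe was above background only in the *Gde5* skKO channel of array 1.

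In all, 3 members, *Fgb*, *Hpx* and *Serpinc1*, were lower on array 1 and higher on array 2, which means that the Cy3 channel was the brighter one both times. Among all measured genes the share was 23.2%. Dye direction changed together with the array, so the part of each cannot be told apart. No measured member had the opposite pattern. In the plot of array 1 against array 2, these genes lie in the upper left, the called genes lie near the diagonal at the lower left, and *Apoh* stands alone at the upper right.

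**Figure D4:**
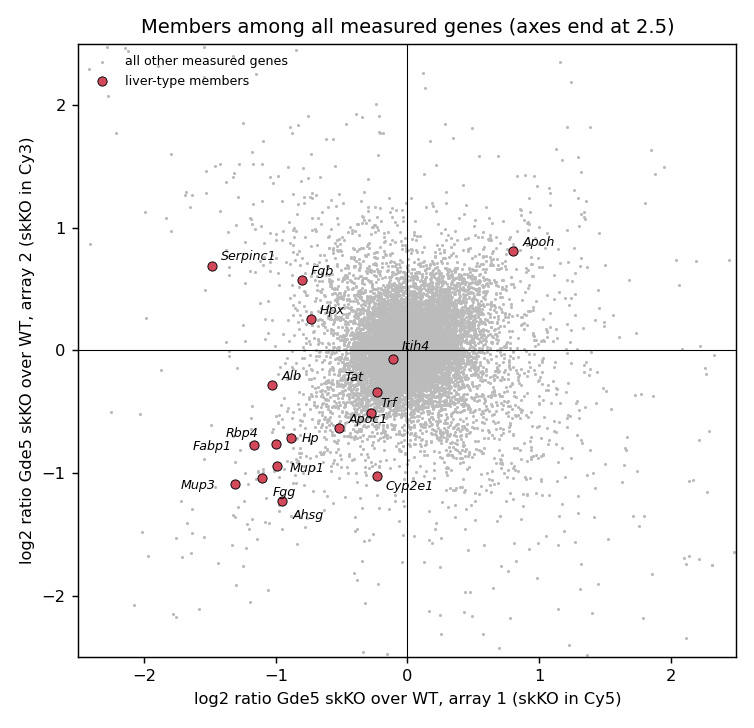
Log2 ratio of *Gde5* skKO over WT on array 1 (x axis) against array 2 (y axis) for all measured genes (grey, axes end at 2.5) and the 17 measured members (red). The 8 members called lower lie at the lower left, from *Apoc1* at -0.52 and -0.64 to *Mup3* at -1.31 and -1.09, while *Fgb*, *Hpx* and *Serpinc1* lie at the upper left.

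Of the inhibitors and acute phase proteins, 2 of 5 with a probe were measured. *Ahsg*, or fetuin-A, a liver glycoprotein that keeps calcium phosphate from precipitating in serum, was at 240 in WT and 124 in *Gde5* skKO on array 1, and at 230 and 98.3 on array 2. WT was the high channel on both arrays, with ratios of -0.95 and -1.23. *Itih4*, an inter-alpha-inhibitor heavy chain, was at 280 and 260 on array 1, and at 298 and 284 on array 2, with ratios of -0.11 and -0.07. *Itih4* thus had similar signals in both genotypes, within the error of 0.21 on each array.

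Of the 8 metabolic proteins, *Fabp1* and *Tat* were measured. *Fabp1*, the liver-type fatty acid binding protein, was at 163 in WT and 72.6 in *Gde5* skKO on array 1, and at 136 and 79.5 on array 2. Its ratios were -1.17 and -0.77, and it was called lower. *Tat*, the tyrosine aminotransferase that glucocorticoids induce in liver, had ratios of -0.23 and -0.34 and was not called. *Cyp2e1*, the ethanol-oxidizing P450 of liver and also of fat, had signals of 70.1 in WT and 59.6 in *Gde5* skKO on array 1, and of 95.2 and 46.9 on array 2. Its ratios of -0.23 and -1.02 were both below 0 but far apart, and it was not called.

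The error of a single log2 ratio ran from 0.21 to 0.29 among the called members and from 0.21 to 0.43 among the measured members not called. Split by where the genes are known to be expressed, 11 of 23 chiefly hepatocyte members were measured, 4 were called lower (*Ahsg*, *Fgg*, *Mup1* and *Mup3*), and their median log2 ratio was -0.95 on array 1 and -0.28 on array 2. Of the 14 members also known from fat, gut, kidney, brain or immune cells, 6 were measured, 4 were called lower (*Apoc1*, *Fabp1*, *Hp* and *Rbp4*), and the medians were -0.70 and -0.74. All 6 of the latter were lower on both arrays, as were 7 of the 11 chiefly hepatocyte genes. Of all measured genes, 1.72% were called lower and 25.1% were lower on both arrays. The list followed from the lowest ratios of these arrays, so nothing is read from the split. The difference between the groups was not tested.

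The name liver-type describes the list and was set beside 98 further genes of liver. These were written from general knowledge, but with earlier results of these data known. Of the 98, 96 had a probe and 25 were measured. By the same rule 4 were called lower, beside 1.72% of all measured genes, and 0 were called higher, beside 1.6%. The median log2 ratio of the 25 was -0.04. The 4 were *Fbp1*, an enzyme of gluconeogenesis (-1.22), *Pon1*, a lipoprotein esterase (-1.20), *Serpina1d*, an antitrypsin copy (-1.12), and *Cyp2f2* (-0.48). As with the *Mup* genes, it is uncertain which antitrypsin copies the *Serpina1d* and *Serpina1b* probes read. The highest were *Gnmt* and *Prox1*, each at 0.57, and neither was called. Another 57 were not above background in any channel, among them the hepatocyte factors *Foxa1*, *Foxa2* and *Foxa3*, the bile acid enzyme *Cyp7a1* and the urea cycle enzyme *Otc*. Other genes typical of hepatocytes were measured and not called, among them the factors *Hnf4a* (-0.43 and 0.10 on the arrays) and *Cebpa* (-0.11 and -0.07) and the receptor chains *Asgr1* (-0.06 and 0.22) and *Asgr2* (-0.30 and 0.27). Genes that mark hepatocytes thus lay on both sides of the detection limit, as *Alb* and *Apoa1* did among the members.

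Marker lists of other cell types are given beside the members. Their counts stand beside the same shares of all measured genes, 1.72% called lower and 1.6% called higher. Of 15 adipocyte genes, 13 were measured, 5 were called lower, which were *Adipoq* (-0.97 and -1.03 on the arrays), *Cfd* (-0.90), *Retn* (-0.83), *Cidec* (-0.70) and *Plin1* (-0.69), and 2 were called higher, *Car3* (0.93) and *Cidea* (0.77). *Scd1* had the lowest mean of the list (-1.06) and was not called. The median of the list was -0.01. Its summed signal was higher in *Gde5* skKO, from 90748 in WT to 114710 on array 1 and from 93384 to 110648 on array 2. Without *Car3*, left out after its values were seen, the sums were 69517 and 72157 on array 1 and 71258 and 70316 on array 2. The largest signals left in them were *Fabp4* (35638 in WT on array 1) and *Lpl* (17746), neither called. The sums therefore follow the brightest genes of the list and not the 5 called lower. Neither the sums nor the median measure how much adipocyte RNA was present. *Lep* and *Adrb3* were not above background. The members' summed signal went from 5752 in WT to 3428 on array 1 and from 5690 to 3669 on array 2. *Mup1* alone gave 2031 and 1021 of these on array 1, and 2008 and 1042 on array 2. The members' sums thus lean on their brightest gene too. Of 8 kidney genes 3 were measured, and *Kap* was called lower (-1.82). The other measured kidney genes, *Slc22a6* (0.06) and *Aqp2* (0.07), were not called, and the median of the list was 0.06. *Umod* and 4 others were not above background. Of 8 macrophage genes 7 were measured, 0 were called and the median was -0.17. Of 8 blood cell genes 4 were measured and 0 were called, and the small intestine and pancreas lists had no measured gene. Of 10 skeletal muscle genes 8 were measured and 0 were called. The part of fat, kidney or other cells in the members' ratios was not tested, and in bulk muscle RNA fewer cells of a type and less RNA per cell cannot be told apart.

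**Figure D5:**
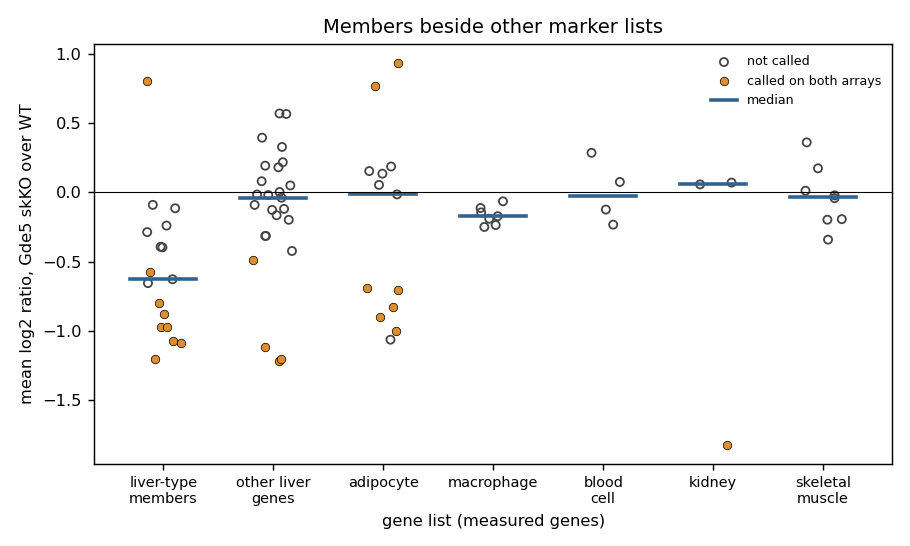
Mean log2 ratio of *Gde5* skKO over WT for the measured genes of each list, with filled points for called genes, open points for the others and a bar at the median. The members' median lies at -0.63, and the medians of the other liver genes and the adipocyte genes lie at -0.04 and -0.01, although both lists hold called genes near -1.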

How the data were processed

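The 2 dye-swapped arrays shared 1 slide and were scanned together. The labels state that RNA was extracted with QIAzol. The members and gene lists were chosen with earlier results of these data known.

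The authors used Feature Extraction 9.5.3.1 to read the scans. Its log10 ratio (Cy5 over Cy3, background-subtracted and dye-normalized) and a p-value from its error model are in each deposited file. The deposited files also hold the intensity of each spot and its local background in both channels. The same log10 ratio stands in the deposited series table, where the swapped array is not turned.

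Here the log10 ratios were put on the log2 scale, turned so that *Gde5* skKO stands over WT, and spots of the same probe were averaged. Control spots were left out, as were spots with outlier marks, 686 on array 1 and 830 on array 2 of 43379. Between 44.5% and 53.2% of the spots kept were well above background in a channel. Precision is limited by the number of arrays. Every member was named with its ratio or its detection, and signals were printed in full for called members, the 5 lowest and 3 highest mean ratios, *Alb*, *Ttr*, *Apoa1* and *Apoa2*. From other lists the 2 lowest and 2 highest genes were to be named, and list genes outside that rule were chosen after their values were seen.

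As alternatives, limma 3.58.1 (R 4.3.3) was run with normexp (offset of 50) and loess, without background correction, and with its moderated test. Further alternatives were the series table, other filters and thresholds, all probes, the methods' t-test, and each array alone. Promoters came from RefSeq (GRCm38.p6), and 11 members had none in that table. A motif and a list gene that were planned are not reported here. Scripts ran in Python 3.11.15 with numpy 2.4.6, scipy 1.17.1, pandas 2.3.3 and matplotlib 3.10.9. The call rule and limma's unadjusted moderated test were tried on simulated ratios. The simulation of the call rule drew its noise from the deposited error that also gives the p-value.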

Additional observations from a re-analysis of the deposited data

How the results depend on the processing

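The count of members called lower was 8, and it lay between 6 and 11 except with adjusted tests or with the chiefly hepatocyte members alone. With limma ratios, without background correction and with the series table, calls still used the software's p-values. Under those settings the count could change only where a ratio changed direction. The count was 5 with Benjamini-Hochberg adjustment per array, beside 68 of all 13289 measured genes. It was 2 (*Mup1* and *Rbp4*) with limma's moderated test so adjusted, beside 86 of all genes. The methods' t-test so adjusted called 0 members and 0 of all genes, so this 0 is not particular to the members. Unadjusted, it called 9 members and 554 of all genes lower. Array 1 alone called 11 members and 710 of all genes lower, and array 2 alone 10 and 892, against 229 of all genes in the main setting. The chiefly hepatocyte members alone gave 4. *Apoh* was not called higher with the adjusted moderated test or the adjusted t-test. With limma ratios 2 members were higher on both arrays, and with either array alone between 1 and 4. The median of -0.63 was -0.22 with limma ratios, -0.23 without background correction, -0.40 for the chiefly hepatocyte members, between -0.89 and -0.64 on either array alone, and -0.84 for members with an error of up to 0.3, a limit chosen after seeing the data. Without *Mup1* and *Mup3*, also chosen after seeing the data, it was -0.58, with 6 members called lower. With the software's weaker test of signal over background, 28 members were detected in place of 17. None of the 72 alternatives for the 9 called members changed their direction, but most of them could not. A call already needs the same direction on each array, and other filters leave a gene's ratio as it was. Among these settings, the limma ratios and those without background correction were computed anew for every gene. Among the members not called, *Hpx* turned from -0.24 to 0.08 with limma ratios, and on array 2 alone *Hpx* (0.25), *Fgb* (0.57, from -0.11) and *Serpinc1* (0.69, from -0.40) were higher. Of all 136 alternatives for single members 24 moved by more than the spread between the arrays. The cause of these shifts was not tested. The slide could not be used as a block, because both arrays lie on 1 slide. Each ratio already pairs the genotypes within an array, and no further replicate block was fitted.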
